A study of Homo sapiens with 10 samples.

Results

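The MCM helicase family holds 9 genes, MCM2 to MCM10, taken by gene name. The family was chosen with earlier results of these data known. Each gene was read from the probe set annotated to its symbol alone, and where a gene had several such probe sets, from the one with the highest mean over the 10 arrays. By this rule 8 of the 9 genes were measured, out of 14232 genes on single-symbol probe sets. MCM7 has no probe set of its own in the annotation and is not analysed here.

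MCM2 to MCM7 form a ring of 6 subunits that is loaded onto replication origins in G1 and unwinds DNA in S phase, once CDC45 and the GINS complex have joined it. MCM8 and MCM9 are related proteins that work together in homologous recombination. MCM10 shares the name but not the helicase fold, and acts when the loaded ring is activated at an origin. MCM genes are well-known targets of E2F transcription factors, which RB restrains until cyclin D-dependent kinases phosphorylate it.

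Both groups were U2OS cells, a human osteosarcoma line that retains RB. The tested cells received PD0332991, the CDK4 and CDK6 inhibitor also known as palbociclib, for 4 h, and the control cells received its solvent DMSO for 4 h. Before that, all dishes had grown for 30 h in medium with 10% serum from 25% density. The labels state the dose as 1 mM, well beyond what cultured cells are usually given of this compound, so the unit is doubtful. The arrays cannot check it. Each treatment has 5 replicates labelled as biological, with no word on whether cultures were started separately, so p-values measure the spread between these samples. Each replicate has 1 gene-level exon array, and the array names fall into set 1 (replicates 1 to 3 of both treatments) and set 2 (replicates 4 and 5 of both). All levels below are deposited log2 values, which do not allow the level of one gene to be set against that of another.

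The array medians lay between 6.95 and 7.06. The array median is a rough guide only, since levels of different genes are not comparable. Of 8 mesenchymal and bone markers 6 were above it, with COL1A1 at 12.05 after PD0332991 and 12.02 in DMSO. COL1A2 (6.57 after PD0332991, 6.53 in DMSO) and TWIST1 (6.16 after PD0332991, 6.23 in DMSO) were below it. Of 6 measured blood cell markers 0 were above it. Of 7 epithelial markers 3 were above the median, among them KRT8 at 11.68 after PD0332991 and 11.73 in DMSO, while CDH1, a defining one, stood at 5.56 after PD0332991 and 5.55 in DMSO. Summed on the linear scale, the epithelial list spanned 12.16 to 12.55 after PD0332991 and 12.25 to 12.70 in DMSO (log2). No marker of the 3 lists passed the test. DMSO replicate 1 stood apart, with the narrowest interquartile range (3.18 on the log2 scale, against 3.32 to 3.68 on the other arrays). It had the lowest of the 5 DMSO values in all 8 measured MCM genes, as it did in 27.9% of the single-symbol genes and in 42.2% of those within the MCM genes' range of mean level. Its part in the results was not tested further than by leaving it out, and values without it are given for each MCM gene.

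After 4 h of PD0332991, all 8 measured MCM genes had lower means than in DMSO, and 1 of them, MCM10, fell past the threshold (limma with array set as a covariate, Benjamini-Hochberg adjusted p under 0.05). MCM10 was 1.70-fold lower. In bulk RNA, fewer cells in the phase that expresses a gene and less RNA per cell cannot be told apart. The 5 measured ring subunits had 1.08-fold to 1.27-fold lower levels, and MCM8 and MCM9 1.10-fold and 1.17-fold lower levels, and none of these 7 passed. The median log2 fold change of the 8 genes was -0.27, against -0.02 over all single-symbol genes, of which 55.3% were below 0. In the same fit 0.0409% of 21980 probe sets passed as lower and 0.0091% as higher. At an unadjusted p under 0.05, 3 MCM genes were lower, MCM2, MCM5 and MCM10, where 2.76% of all probe sets were. None was higher at that level, where 1.41% of all probe sets were.

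MCM10 stood at 8.81, 8.69 and 8.85 in PD0332991 replicates 1 to 3 and at 8.61 and 8.62 in replicates 4 and 5, against 9.30, 9.61 and 9.79 in DMSO replicates 1 to 3 and 9.37 and 9.33 in replicates 4 and 5 (log2 level). The treatments did not overlap, and the highest treated array lay below the lowest DMSO array. The mean was 8.71 ± 0.11 after PD0332991 and 9.48 ± 0.21 in DMSO (SD, n = 5 each). The log2 fold change was -0.77 (SE 0.11, 95% confidence interval -0.999 to -0.531), or 1.70-fold lower with an interval of 1.445 to 1.999, at a limma adjusted p of 0.0499. It was -0.79 within array set 1 and -0.73 within array set 2. The adjusted p was just inside the threshold: with 1 array left out, MCM10 kept its call without DMSO replicate 1 (adjusted p = 0.00852, 1.78-fold lower) whereas each of the other 9 fits ended it (0.127 to 0.265), while its log2 fold change stayed between -0.83 and -0.70. The call also ended without array set in the model (0.0873), with replicate number in its place (0.196) and within either array set alone (0.999 in set 1, 0.651 in set 2).

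**Figure D1:**
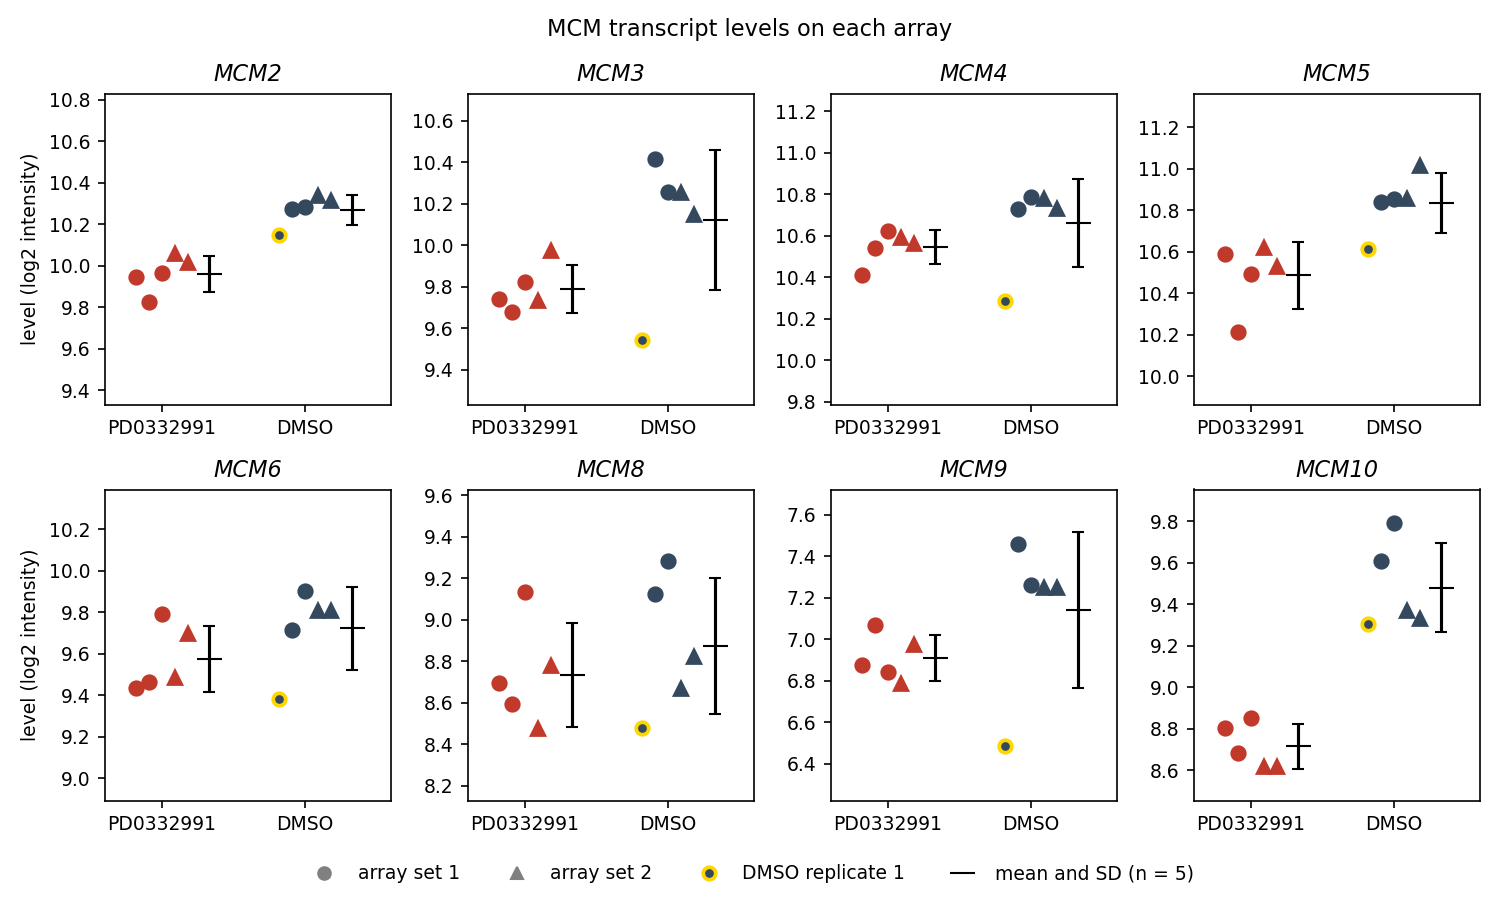
Level of each measured MCM gene (log2 intensity, vertical axes of equal span) on the 5 PD0332991 arrays (red, left) and the 5 DMSO arrays (dark, right), with the mean and SD. Circles are array set 1 and triangles set 2. MCM10 separates the treatments fully, with 8.85 as its highest treated value and 9.30 as its lowest DMSO value, and DMSO replicate 1 (gold ring) is the lowest DMSO array in all 8 panels.

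Among the ring subunits, MCM2 and MCM5 showed the clearest separation. MCM2, whose N-terminal tail also binds histones, had levels of 9.95, 9.82, 9.96, 10.06 and 10.01 in PD0332991 replicates 1 to 5 and 10.15, 10.27, 10.28, 10.34 and 10.31 in DMSO replicates 1 to 5. All treated arrays lay below all DMSO arrays. Its log2 fold change was -0.31 (SE 0.08, 95% confidence interval -0.49 to -0.13, limma adjusted p = 0.635), with -0.32 in set 1 and -0.29 in set 2. Without DMSO replicate 1 it was -0.33 (-0.49 to -0.17, adjusted p = 0.240).

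MCM5 pairs with MCM2 at the gate through which the ring opens around DNA. It had levels of 10.59, 10.21, 10.49, 10.62 and 10.52 in PD0332991 replicates 1 to 5 and 10.61, 10.84, 10.85, 10.85 and 11.02 in DMSO replicates 1 to 5. Within each array set the treated arrays lay below the DMSO arrays, but PD0332991 replicate 4 (10.62) was level with DMSO replicate 1 (10.61). The log2 fold change was -0.35 (SE 0.10, 95% confidence interval -0.58 to -0.12, limma adjusted p = 0.782), with -0.34 in set 1 and -0.36 in set 2. Without DMSO replicate 1 it was -0.39 (-0.61 to -0.18, adjusted p = 0.339).

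MCM3, which sits beside MCM5 in the ring, had levels of 9.74, 9.68, 9.82, 9.73 and 9.97 in PD0332991 replicates 1 to 5 and 9.55, 10.42, 10.26, 10.25 and 10.15 in DMSO replicates 1 to 5. DMSO replicate 1 was below every treated array, and the other 4 DMSO arrays were above every treated array. The log2 fold change was -0.33 (95% confidence interval -0.68 to 0.014, limma adjusted p = 1.00) with all arrays, and -0.48 (-0.69 to -0.27, adjusted p = 0.167) without DMSO replicate 1. Its smallest size with 1 array left out was -0.24, without DMSO replicate 2.

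MCM4 and MCM6 unwind DNA as a subcomplex with MCM7. MCM4 had levels of 10.41, 10.54, 10.62, 10.59 and 10.56 in PD0332991 replicates 1 to 5 and 10.28, 10.73, 10.79, 10.78 and 10.73 in DMSO replicates 1 to 5. Here too DMSO replicate 1 was the lowest of all 10 arrays and the other 4 DMSO arrays were the highest. The log2 fold change was -0.11 (95% confidence interval -0.37 to 0.14, limma adjusted p = 1.00), and -0.21 (-0.37 to -0.04, adjusted p = 0.689) without DMSO replicate 1. Without DMSO replicate 3 it was nearer 0, at -0.069.

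MCM6 had levels of 9.44, 9.46, 9.79, 9.48 and 9.70 in PD0332991 replicates 1 to 5 and 9.38, 9.71, 9.90, 9.81 and 9.81 in DMSO replicates 1 to 5. The treatments overlapped, since PD0332991 replicate 3 was above DMSO replicates 1 and 2. The log2 fold change was -0.15 (95% confidence interval -0.42 to 0.13, limma adjusted p = 1.00), and -0.23 (-0.46 to -0.0046, adjusted p = 0.831) without DMSO replicate 1. Leaving out DMSO replicate 3 instead gave -0.091.

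MCM8 and MCM9, the pair that acts in recombination rather than at origins, had wide intervals. MCM8 spanned 8.47 to 9.13 after PD0332991 (median 8.70) and 8.48 to 9.28 in DMSO (median 8.82). The ranges coincided almost fully, and the log2 fold change was -0.14 (95% confidence interval -0.52 to 0.24, limma adjusted p = 1.00), or -0.27 (-0.58 to 0.04, adjusted p = 0.923) without DMSO replicate 1. It was -0.23 without PD0332991 replicate 3, -0.080 without PD0332991 replicate 2 and -0.050 without DMSO replicate 3, so single arrays set much of its size.

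MCM9 had levels of 6.87, 7.07, 6.84, 6.78 and 6.97 in PD0332991 replicates 1 to 5 and 6.48, 7.46, 7.26, 7.25 and 7.24 in DMSO replicates 1 to 5. As for MCM3 and MCM4, DMSO replicate 1 was below every treated array and the other DMSO arrays above them. The log2 fold change was -0.23 (95% confidence interval -0.61 to 0.15, limma adjusted p = 1.00), and -0.40 (-0.60 to -0.20, adjusted p = 0.253) without DMSO replicate 1. Leaving out DMSO replicate 2 instead gave -0.14. A second MCM9 probe set, with a lower mean, gave -0.29 (SE 0.25, adjusted p = 1.00), with 5.93 after PD0332991 and 6.21 in DMSO.

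**Figure D2:**
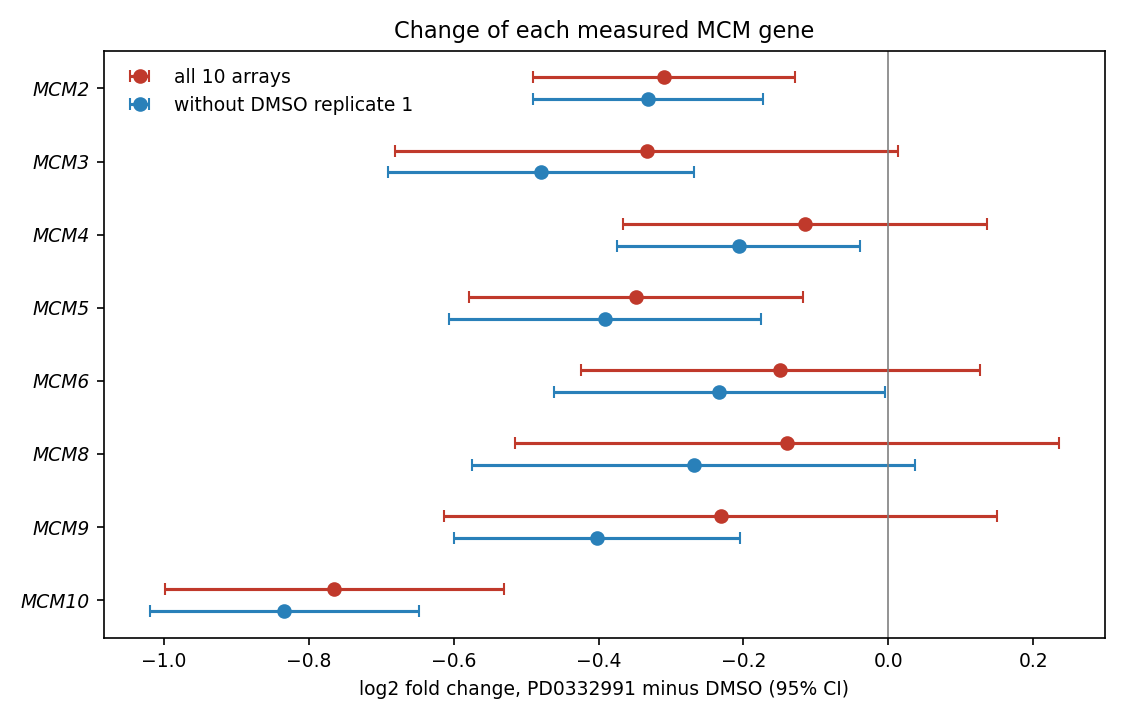
Log2 fold change (PD0332991 minus DMSO, horizontal axis) of each measured MCM gene with its 95% confidence interval, over all 10 arrays (red) and without DMSO replicate 1 (blue). All 8 values are below 0 in both fits. The interval of MCM10, -0.999 to -0.531 over all arrays, lies farthest from 0, and without DMSO replicate 1 every interval except that of MCM8 lies below 0. That array was the lowest DMSO array in all 8 genes, so leaving it out raises each DMSO mean.

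Over all arrays, 3 of the 8 genes (MCM2, MCM5 and MCM10) had every treated array below every DMSO array of its own set, an order held by 1.7% of the single-symbol genes. None had the opposite order, held by 0.899%. Without DMSO replicate 1 the count was 6, MCM3, MCM4 and MCM9 being added, beside 3.49% of genes. That array had the lowest DMSO value in all 8 genes. Leaving out any array can only keep or raise this count, and so can reading 1 array set alone. In array set 2 alone, which does not hold that array, it was 7 of 8, MCM8 being the exception, beside 17.6% of genes. Without DMSO replicate 1, 7 of the 8 genes were lower at an unadjusted p under 0.05, all but MCM8, where 3.72% of probe sets were, and MCM10 was again the only one past the adjusted threshold, which 0.091% of probe sets passed as lower. The median log2 fold change of the 8 genes was then -0.36. Leaving out the lowest DMSO value raises the DMSO mean of each of the 8 genes, so a shift to lower log2 fold changes came with this choice. The shares over all probe sets are not matched for this, since that array was the lowest in 27.9% of the single-symbol genes. A treatment by array set interaction, fitted with limma over all probe sets, passed for 0 of the 8 genes, 0 at an unadjusted p under 0.05 (lowest 0.548), and for 0 probe sets in all, with 562 at an unadjusted p under 0.05.

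The promoters are shown because E2F factors are the known link from cyclin D-dependent kinases to MCM transcription. RefSeq promoter windows on GRCh38.p14, 250 bases before to 50 after the gene start, were found for 6 of the 8 measured genes. They were searched on both strands for the E2F-type words TTTGGCGC, TTTCGCGC, TTTCCCGC and TTTGCCGC, for CCAAT, the box bound by NF-Y, and for TTTGAA. The wider search added TTTGGCGG, TTTCGCGG, TTTCCCGG and TTTGCCGG, and was chosen after the first had been run. Below are the windows of the gene past the threshold and of 3 ring subunits, up to base 20 after the start, with E2F-type words and CCAAT in capitals.
MCM10 (chr10:13161308-13161577, plus strand): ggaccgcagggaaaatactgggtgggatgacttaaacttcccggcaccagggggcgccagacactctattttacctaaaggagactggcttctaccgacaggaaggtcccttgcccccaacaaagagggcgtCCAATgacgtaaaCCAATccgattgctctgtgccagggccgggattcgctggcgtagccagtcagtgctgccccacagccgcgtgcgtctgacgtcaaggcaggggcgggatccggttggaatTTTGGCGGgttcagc
MCM2 (chr3:127598161-127598430, plus strand): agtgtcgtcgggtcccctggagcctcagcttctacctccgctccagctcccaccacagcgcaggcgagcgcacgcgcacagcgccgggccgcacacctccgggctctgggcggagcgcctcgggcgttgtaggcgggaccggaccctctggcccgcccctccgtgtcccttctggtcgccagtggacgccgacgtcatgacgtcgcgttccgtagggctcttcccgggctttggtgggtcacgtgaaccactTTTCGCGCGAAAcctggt
MCM3 (chr6:52284723-52284992, minus strand): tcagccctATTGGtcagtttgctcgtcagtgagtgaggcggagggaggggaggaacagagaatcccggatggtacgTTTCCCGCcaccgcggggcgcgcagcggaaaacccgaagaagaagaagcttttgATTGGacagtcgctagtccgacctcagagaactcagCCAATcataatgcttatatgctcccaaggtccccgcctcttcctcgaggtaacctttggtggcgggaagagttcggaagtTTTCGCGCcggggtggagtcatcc
MCM6 (chr2:135876424-135876693, minus strand): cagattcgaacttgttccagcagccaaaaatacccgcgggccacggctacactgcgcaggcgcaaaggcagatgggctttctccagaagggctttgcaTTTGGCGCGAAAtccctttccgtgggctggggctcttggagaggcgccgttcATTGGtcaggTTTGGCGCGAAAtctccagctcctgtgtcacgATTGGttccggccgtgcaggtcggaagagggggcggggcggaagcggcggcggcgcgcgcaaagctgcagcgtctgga

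An E2F-type word of the first 4 occurred in 4 of the 6 windows, those of MCM2, MCM3, MCM6 and MCM8, and in 3.31% of 35116 promoter windows of all genes. MCM6, at -0.15 on the log2 scale, held the most: 2 copies of TTTGGCGCGAAA, each read as TTTGGCGC on one strand and TTTCGCGC on the other, which begin 152 and 90 bases before the start. MCM2, at -0.31, held TTTCGCGCGAAA from base 3 after the start, also a match on both strands. MCM3, at -0.33, held TTTCCCGC from 174 bases before the start and TTTCGCGC across the start itself. MCM10, with the largest change of the 8 (-0.77), held none of the first 4 words and 1 of the wider set, TTTGGCGG at bases 6 to 13 after the start, where 6.19% of all windows hold a word of the wider set. CCAAT or its complement ATTGG was present in 5 of the 6 windows, all but that of MCM2, and in 34.6% of all windows. TTTGAA, the core of the cell cycle homology region found in many G2/M promoters, was in 0 of the 6 windows and in 15.2% of all windows. No E2F-type word overlapped a CCAAT box in the 4 windows printed. A match is a string of letters, and binding was not measured.

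Genes for origin recognition and ring loading, for completing and activating the ring, for binding or unloading it, and for the primase-polymerase were read from 5 lists. Of 35 listed genes 31 were measured. None passed the limma threshold. At an unadjusted p under 0.05, 11 were lower and 0 higher, where 2.76% of all probe sets were lower and 1.41% higher. The median log2 fold change was -0.22, against -0.02 over all single-symbol genes. Without DMSO replicate 1 the median was -0.26 and 17 were lower at an unadjusted p under 0.05, beside 3.72% of probe sets. Origin recognition and loading genes came next. The loader CDT1 was at -0.94 (SE 0.17), the loader CDC6 at -0.68 (SE 0.11), GMNN, whose product geminin inhibits CDT1, at -0.59 (SE 0.13) and ORC1, a subunit of the origin recognition complex, at -0.57 (SE 0.09). ORC2, ORC3, ORC4 and ORC5, other subunits of that complex, lay between 0.012 and 0.19, and ORC6 was at -0.23. The same 4 subunits, with DMSO replicate 1 left out, lay between -0.084 and -0.018 and ORC6 was at -0.39, so the signs of ORC2 to ORC5 turned with that array. Limma adjusted p-values of CDT1, CDC6, GMNN and ORC1 were 0.117 to 0.408. All 4 passed as lower when DMSO replicate 1 was left out (adjusted p = 0.0235 to 0.0495), as 0.091% of probe sets did. In that fit CDT1 was nearer 0, at -0.77, and CDC6, GMNN and ORC1 were farther from 0, at -0.73, -0.71 and -0.60. MCM10 was then at -0.83, so the order of CDT1 and MCM10 turned with that array. Leaving out any other single array gave 0 calls among the 31 genes.

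CDC45 and the 4 GINS genes, whose products complete the active helicase, had values of -0.50 (GINS3) to -0.08 (GINS4), with CDC45 at -0.34 (SE 0.09, adjusted p = 0.643) and a median of -0.34. This median is close to the -0.31 of the 5 measured ring subunits, and the difference between the lists was not tested. Among 7 measured helicase activation genes, TICRR, which recruits CDC45 to the loaded ring, was at -0.47 (SE 0.11) and the kinase gene CDC7, whose product phosphorylates the ring, at -0.31 (SE 0.21). Its partner DBF4 was at -0.07 (SE 0.20) and MTBP, the partner of TICRR, at 0.07 (SE 0.25). Of the genes for factors that bind or unload the ring, CLSPN had the largest change, at -0.52 (SE 0.14). MCMBP, which binds MCM subunits, was at -0.21 (SE 0.10), and HROB, which recruits MCM8 and MCM9 in recombination, at -0.37 (SE 0.10). Of the primase-polymerase that MCM10 contacts, the subunit gene POLA2 was at -0.38 (SE 0.10), PRIM1 at -0.22 (SE 0.12) and PRIM2 at 0.16 (SE 0.19). With DMSO replicate 1 left out, PRIM2 was at -0.018, MTBP at -0.16, CDC7 at -0.51, GINS1 at -0.56 and CDC45 at -0.33.

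**Figure D3:**
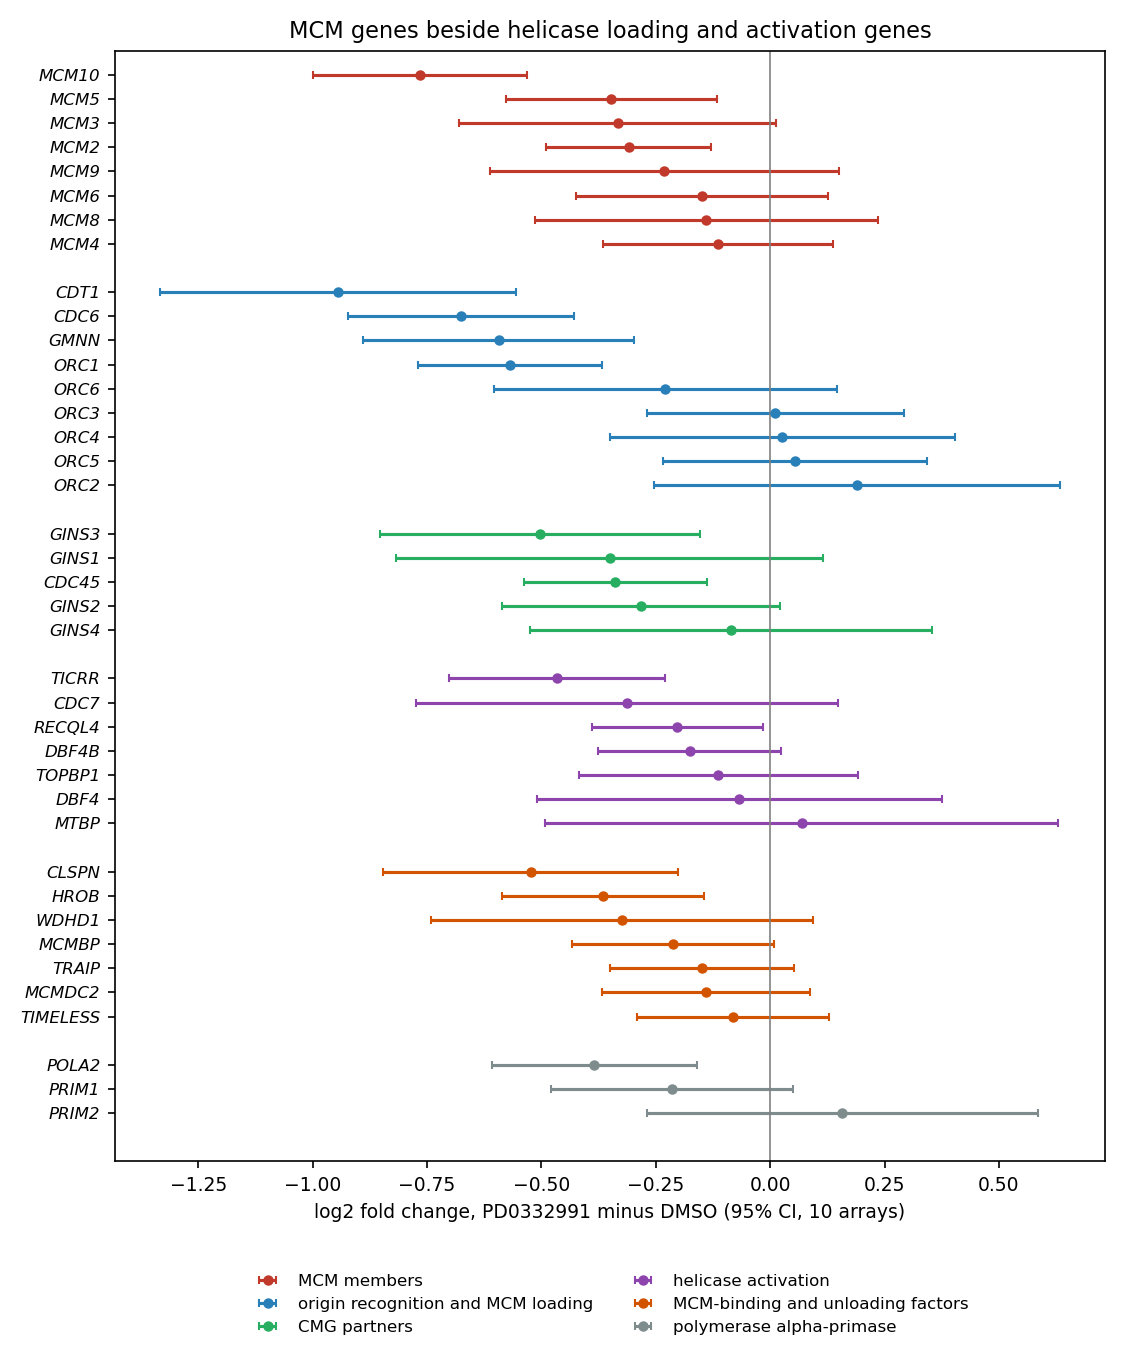
Log2 fold change (PD0332991 minus DMSO, horizontal axis) with 95% confidence interval over 10 arrays, for the 8 measured MCM genes and 31 genes of the 5 lists, coloured by list and sorted within it. MCM10 at -0.77 lies among CDT1 (-0.94), CDC6 (-0.68), GMNN (-0.59) and ORC1 (-0.57). The ring subunits, -0.35 to -0.11, lie within the range of CDC45 and the GINS genes, -0.50 (GINS3) to -0.08 (GINS4). GINS3 and CLSPN (-0.52) lie nearer to ORC1 than to any ring subunit.

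Outside the family, the genes whose profile over the 10 arrays was nearest to that of MCM10 were MYB, JPH1, CDC6, MASTL and EXO1. Likeness was the root mean square difference of log2 levels after each gene was centred within each array set, searched over 14224 genes. It was 0.09 for MYB, a transcription factor gene, 0.10 for JPH1, a junctophilin gene, 0.10 for CDC6, 0.11 for MASTL, a mitotic kinase gene, and 0.11 for EXO1, an exonuclease gene. Among the MCM genes the nearest to MCM10 were MCM5 at 0.23 and MCM2 at 0.24, and the farthest was MCM8 at 0.35. The treatment difference is part of these profiles, so the distances are a description and carry no test.

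**Figure D4:**
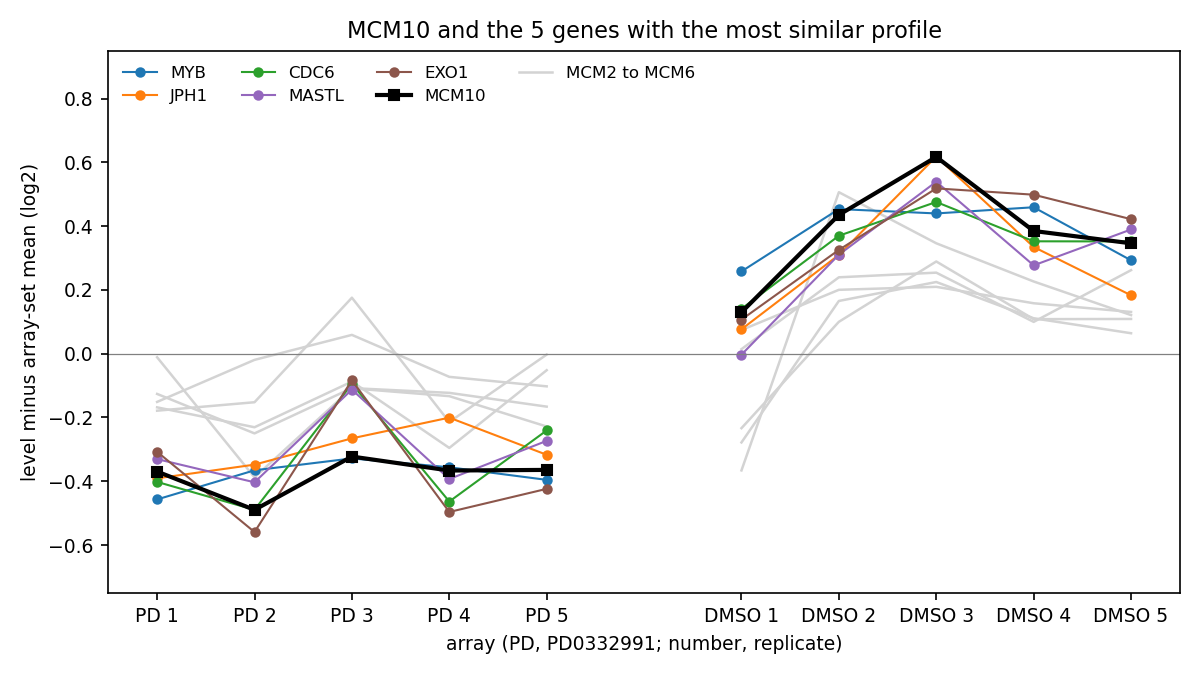
Level minus the array-set mean (log2, vertical axis) on each array for MCM10 (black), the 5 genes nearest to it (coloured) and MCM2 to MCM6 (grey). MCM10 and its neighbours lie below 0 on all 5 PD0332991 arrays, and DMSO replicate 1 has lower values than the other DMSO arrays for every line.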

How the data were processed

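RNA of 10 U2OS cultures was measured on gene-level exon arrays. The deposited log2 values were used as the authors made them: RMA, Partek and hg18 are named, without versions, in the submitters' processing notes, and background and summarisation settings are not given in the sources used here. Detection calls were not used here. Probe sets were named through the platform annotation, checked by Entrez identifier against RefSeq GRCh38.p14 (0 symbols changed).

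The members and lists were chosen with earlier results of these data known. All 9 members were to be named whatever their values, with every gene of the 5 pathway lists open to naming and the 5 nearest profiles per target. A linear model of treatment and array set was fitted to all 21980 probe sets with limma 3.58.1 under R 4.3.3 (moderated 2-sided test, Benjamini-Hochberg adjustment). Array number limits precision.

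On simulated data with 21980 probe sets for this comparison, the fit recovered 16% of changes of 0.5 and 65% of changes of 1 (log2), with 7 false among 88 calls. Figures used Matplotlib 3.10.9 under Python 3.11.15.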

Additional observations from a re-analysis of the deposited data

Results flagged for a closer look

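In 2 of the 16 groups of 5 arrays examined (8 genes, both treatments), 1 array stood farther from the others than Dixon's 95% critical value allows. For a single group chance gives about 1 in 20. The groups share the same arrays and are not independent, so the count of 2 cannot be set against that rate. DMSO replicate 1 was the farthest array in 7 groups. MCM4 was at 10.28 in DMSO replicate 1, with the next DMSO array at 10.73. MCM9 was at 6.48 in DMSO replicate 1, with the next DMSO array at 7.24.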

How the results depend on the processing

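All 8 MCM genes stayed below 0 in all 22 alternatives. In some of these the log2 fold changes could not move: without array set in the model and with the replicate block. Nor could they without the dimmest 33.3% of probe sets, with single-symbol probe sets alone, or with an intensity trend and robust prior. Taking the mean over a member's probe sets changed the value of MCM9 alone. MCM10 kept its call in 8 of the 12 alternatives other than leaving out 1 array (adjusted p = 0.00196 to 0.0499 in those 8). Among those 8, the mean over a member's probe sets left the MCM10 levels unchanged, so that call repeats the main fit. MCM10 lost the call without array set in the model (0.0873) and with the replicate block (0.196). It also lost the call in array set 1 alone (0.999) and in array set 2 alone (0.651). In each of these settings 0 MCM genes were called. Leaving out 1 array gave 0 to 1 called MCM genes. The probe sets called lower were 1 with the replicate block, 14 when single-symbol probe sets alone were tested, 50 with array quality weights and 0 in either array set alone. Those called higher were 1 without array set in the model, 1 with the replicate block, 4 with single-symbol probe sets, 13 with array weights and 0 in either set alone. With 1 array left out they were 1 to 20 lower and 1 to 3 higher. MCM genes with all treated arrays below the DMSO arrays of their set numbered 6 without both arrays numbered 1, 7 in array set 2 alone and 3 to 6 with 1 array left out. Pathway genes called lower were 1 after quantile normalization, 2 after cyclic loess, 1 without the dimmest 33.3% of probe sets, 2 with single-symbol probe sets, 1 with an intensity trend and robust prior, 4 with array weights, 1 without both arrays numbered 1 and 0 to 4 with 1 array left out, the 4 without DMSO replicate 1. All these calls were among ORC1, CDC6, CDT1 and GMNN. Deviations of same-numbered arrays from their group means correlated at 0.04, 0.07, 0.54, 0.23 and 0.20 over all probe sets, and 4 of 10 arrays correlated best with their own number. No label says that a number marks a shared day or culture, and 2 pairs were under 0.1, so the replicate block was not used as a pairing. The cause of these moves was not tested. Each array set alone also holds fewer arrays, and the set and the number of arrays cannot be told apart there. The number of arrays limits every value.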

Other observations

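The mean profile of the 5 measured ring subunits had other neighbours than MCM10. The treatment difference is part of both profiles, and likeness was not scaled for size. The root mean square size was 0.17 for the ring mean and 0.40 for MCM10 (log2, centred). Different neighbours, with smaller changes for the ring, thus partly follow from the measure, and no test was made. The 5 nearest genes outside the family were CDCA7L at a root mean square difference of 0.04 (log2), NT5DC3 at 0.06, PRIM1 at 0.06, DCK at 0.06 and POLE at 0.06. PRIM1 encodes the catalytic primase subunit, DCK a deoxynucleoside kinase and POLE the catalytic subunit of DNA polymerase epsilon. Their log2 fold changes were -0.27 (NT5DC3) to -0.20 (CDCA7L), and none passed limma's adjusted threshold. The mean of the 5 subunits was 10.03, 9.94, 10.14, 10.10 and 10.15 in PD0332991 replicates 1 to 5 and 9.99, 10.39, 10.42, 10.40 and 10.40 in DMSO replicates 1 to 5 (log2), so that DMSO replicate 1 lay within the treated range.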
